A study of Mus musculus with 14 samples.

Results

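Of the 88203 intervals of open chromatin in the table of chow-fed livers, 10055 (11.4%) shared no base with any of the 105801 intervals in the table of livers from mice on a high-fat diet. These chow-only intervals were selected by position from both deposited interval lists, and the other 78148 chow intervals, each overlapping a high-fat interval by at least 1 base, serve as the comparison. Every interval is 501 bp wide, with mm10 coordinates. The mice were females with floxed alleles of matrin-3 (Matr3), whose protein sits in the nuclear matrix and binds RNA and DNA, without (floxed) or with (knockout) an Albumin-Cre transgene. Albumin-Cre recombines floxed DNA in hepatocytes, so other liver cells keep the gene, and both genotypes carry the floxed alleles. Diets ran from 7 weeks of age for 16 weeks: 3 floxed and 3 knockout livers came from chow, and 4 of each from the diet with 60 kcal% fat. A fast of 12 h is stated for mice on the high-fat diet; whether chow mice were fasted is not stated in the labels used here.

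ATAC-seq reads open chromatin: a transposase inserts adapters where DNA is not wrapped tightly, so promoters and enhancers in use collect reads and the remaining genome collects few. In liver the strongest sites are promoters shared by most tissues, and the enhancers around hepatocyte genes vary with feeding, hormones and cell state. A peak list holds only sites that passed a caller's threshold in the libraries at hand, so absence from a list is not absence of signal. No read counts at chow-only positions in the high-fat libraries were used. Diet, the peak lists, library depth and the stated fast differ together between the tables and cannot be told apart as sources of an interval's absence.

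The 6 chow libraries held between 15.5 and 35.0 M reads within intervals, and the 8 high-fat libraries between 7.59 and 10.4 M. The libraries numbered 2 were the shallow ones in chow (17.1 M in floxed 2 and 15.5 M in knockout 2), and the first principal component (42.2% of the variance) placed both at the same end. Accessibility does not measure the deletion of Matr3, so the genotype labels were not checked against the targeted gene. Summed signal at the hepatocyte markers was 6970 to 9520 counts scaled to library size (CPM) in floxed and 6570 to 7620 CPM in knockout livers, and all 15 markers had an interval. Markers of Kupffer cells summed to 153 to 197 CPM in floxed and 138 to 179 CPM in knockout livers, and 4 of 12 had no interval. In bulk liver, fewer cells of a type and less accessibility per cell cannot be told apart.

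RefSeq promoter sequences can be shown for genes whose annotated start site falls inside a chow-only interval. Of 21262 RefSeq promoters, 182 (168 genes) started in a chow-only interval and 9986 (8784 genes) in an overlapping one. The 250 bases upstream of the start follow for the genes described in the results whose start lay inside a chow-only interval (GRCm38.p6), with capitals marking matches, on either strand, to the motifs named next. They are Hbp1, which encodes a transcriptional repressor (chr12:31950246-31950495, minus strand), and Lifr, which encodes the receptor for leukaemia inhibitory factor (chr15:7140292-7140541, plus strand).
Hbp1: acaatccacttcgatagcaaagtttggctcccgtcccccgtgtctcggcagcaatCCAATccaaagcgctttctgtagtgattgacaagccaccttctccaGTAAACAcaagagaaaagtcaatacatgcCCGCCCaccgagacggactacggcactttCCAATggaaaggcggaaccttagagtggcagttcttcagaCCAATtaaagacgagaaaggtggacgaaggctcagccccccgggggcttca
Lifr: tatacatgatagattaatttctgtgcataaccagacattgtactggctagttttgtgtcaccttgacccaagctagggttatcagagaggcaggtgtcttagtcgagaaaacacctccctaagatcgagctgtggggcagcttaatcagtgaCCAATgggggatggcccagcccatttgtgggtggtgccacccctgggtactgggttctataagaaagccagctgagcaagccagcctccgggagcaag

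The whole Lifr sequence lies inside its chow-only interval, but only the 33 bases nearest the start do for Hbp1. The Hbp1 sequence held 3 CCAAT boxes, 1 GC box (GGGCGG) and 1 forkhead motif (TGTTTAC), all outside its chow-only interval, and the Lifr sequence held 1 CCAAT box, inside the interval. Over windows of 300 bases around the start, read on both strands, GGGCGG occurred in 53.8% of promoters starting in a chow-only interval, 67.5% of those starting in an overlapping interval and 46.2% of all promoters. CCAAT occurred in 39.6%, 38.2% and 38.2%, and TATAAA in 7.14%, 6.29% and 12.6%. The E-box CACGTG was in 4.4%, 10.1% and 7.84%, and the CRE TGACGTCA in 0 of 182 promoters against 3.2% and 2.23%. The AP-1 motif TGANTCA was in 4.4%, 4.56% and 6.99%, the forkhead motif TGTTTAC in 2.75%, 2.65% and 3.01%, and the HNF4 motif CAAAGTCCA in 1.1%, 0.481% and 0.452%. GC content was 58.4% ± 11.7 (SD over promoters) in the chow-only set, 61.9% ± 9.02 in the overlapping set and 56.2% ± 11.6 in all. These matches describe letters and do not show binding.

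MicroRNA genes offer another view of what the intervals hold. Of 74 RefSeq hairpins lying wholly inside a chow interval, 6 (8.11%) lay in a chow-only one: Mir3965, Mir148a, Mir344d-2, Mir152, Mir6541 and Mir3081. Mir148a and Mir152 belong to one family, and their 3p arms carry the same seed (bases 2 to 8, in capitals), the part of a microRNA that pairs with its targets. miR-148a is known as an abundant hepatocyte microRNA. This pair was chosen for display after the positions were seen.
mmu-miR-148a-3p: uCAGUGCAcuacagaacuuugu
mmu-miR-152-3p: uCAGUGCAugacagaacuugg

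The Mir148a interval (chr6:51269565-51270065), 177 bp from a high-fat interval, read 6.44, 5.18 and 6.43 CPM in floxed and 7.34, 5.33 and 7.48 CPM in the knockouts. The Mir152 interval (chr11:96850170-96850670), at the end of Copz2 and 65 bp from a high-fat interval, read 5.30, 5.86 and 4.10 CPM against 4.74, 5.14 and 3.57 CPM. The genotypes overlapped at both. The log2 fold changes of knockout over floxed were 0.16 ± 0.20 (SE; edgeR adjusted p = 0.861) and −0.19 ± 0.24 (edgeR adjusted p = 0.863).

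Chow-only intervals were weak. Their mean level over the 6 chow libraries had a median of 4.61 CPM (5th to 95th percentile 3.07 to 8.81, highest 36.2), against 8.75 CPM (4.12 to 31.5, highest 225) for overlapping intervals. In reads per library, the medians were 124 and 238. The deposited score per interval had a median of 3.46 in chow-only and 8.73 in overlapping intervals. Only 676 chow-only intervals (6.72%) reached the median of the whole table, 7.97 CPM. In 4 equal bins of level, from weakest to strongest (bounds 5.43, 7.97 and 13.5 CPM), chow-only intervals made up 32.2%, 10.4%, 2.51% and 0.558% of the chow intervals. These levels come from libraries that also supplied the peak list, so they are a description.

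**Figure D1:**
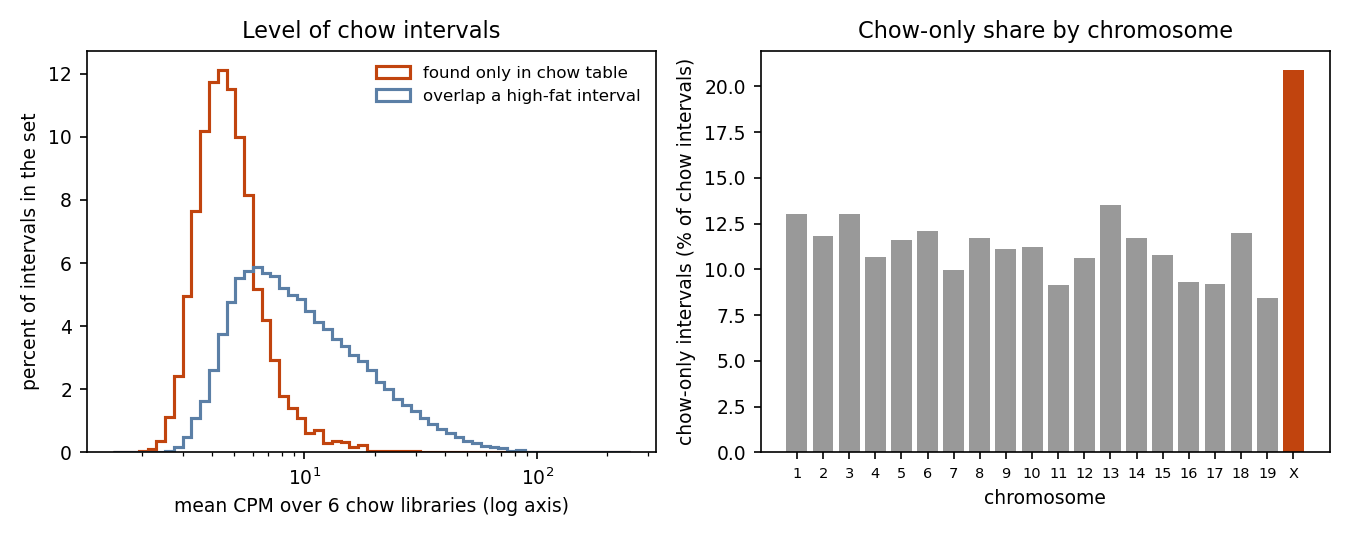
Left, distribution of mean CPM over the 6 chow libraries (log axis) for chow-only and overlapping intervals, each as percent of its set. Right, chow-only intervals as percent of the chow intervals of each chromosome; chromosome X stands at 20.9% and chromosomes 1 to 19 between 8.46% and 13.5%.

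The split between the sets runs through neighbouring DNA for many intervals. The gap from a chow-only interval to the nearest high-fat interval had a median of 2870 bp (quartiles 360 and 12300 bp, longest 1540000 bp). Gaps of up to 100 bp accounted for 11.7% of chow-only intervals, gaps above 100 and up to 500 bp for 16.8%, and gaps above 50000 bp for 6.72%. At the threshold itself, 15 chow-only intervals abutted a high-fat interval and 14 overlapping intervals shared a single base with one. Just inside were intervals in Snx18 (a sorting nexin; mean 7.36 CPM), Abcc4 (an export pump; 4.47 CPM) and Sybu (a kinesin adaptor in neurons; 6.86 CPM). Just outside were intervals in Xkr9 (6.81 CPM), Prox1, a liver and lymphatic transcription factor (10.9 CPM), and Dapk1, a death-associated kinase (4.26 CPM).

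A smaller share of chow-only than of overlapping intervals lay at gene ends. They were within 1000 bp of either end of a protein-coding gene in 13.1% of cases, inside a gene body in 52.2% and between genes in 34.7%, against 26.0%, 45.7% and 28.3% of overlapping intervals. A RefSeq start site lay within 1000 bp of 850 chow-only and 15394 overlapping intervals, counted without chromosome 18. The median distance to the nearest start site was 30500 bp and 16800 bp. Gene ends are where the strong shared promoters sit, and the median level at gene ends was 5.64 CPM for chow-only and 14.0 CPM for overlapping intervals.

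Chromosome X held 358 chow-only intervals, 20.9% of its intervals against 11.2% on the autosomes. Within bins of like level the shares also differed: in the weakest bin they were 48.6% and 31.7%, in the next bins 17.5% and 10.2%, then 3.47% and 2.49%. In the strongest bin the order turned, with 0.326% on X (1 interval) and 0.561% on the autosomes. Chromosome 19 had the lowest share, 8.46%. All mice were female.

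The strongest chow-only intervals lay close to high-fat intervals. The 10 highest, taken 1 per gene, averaged 25.8 to 36.2 CPM, and all 10 were within 195 bp of a high-fat interval. The highest, at the end of Phlda1 (a growth-factor-induced protein with a pleckstrin homology-like domain), read 41.4, 38.1 and 55.2 CPM in floxed and 28.7, 21.9 and 31.7 CPM in the knockouts. Every knockout value was below every floxed value, as at 6.04% of all chow intervals. The log2 fold change was −0.71 (adjusted p = 0.326 in edgeR and 0.0358 in DESeq2), and the interval's name records a floxed peak call. Next came Ankrd50 (an endosomal recycling protein; mean 30.1 CPM), Fgb and Fgg (2 of the 3 fibrinogen chains; 29.5 and 27.8 CPM) and Acadl, a mitochondrial fatty acid oxidation enzyme (27.3 CPM). Esyt2 and Birc6 each averaged 27.1 CPM, Suco and Hbp1 26.0 CPM, and Hamp, which encodes the iron hormone hepcidin, 25.8 CPM. The Birc6 interval, only 2 bp from a high-fat interval, was at 27.0 ± 3.25 CPM (SD, n = 3) in floxed and 27.1 ± 3.15 CPM in knockout.

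A protein-coding gene lay within 50000 bp of 87.4% of chow-only intervals (8786, at 5245 genes), against 92.3% of overlapping ones. Most of these genes, 3504, had a single chow-only interval, and 31 genes had 10 or more. At 467 genes every assigned chow interval was chow-only. Consecutive chow-only intervals with no overlapping interval in between formed 8107 runs, of which 6728 held 1 interval (66.9% of chow-only intervals) and 15 held 8 or more.

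The chow-only intervals were selected by position, without the genotype comparison. Peak calls of each genotype supplied the chow table, however, so an interval could enter it through the genotype in which it is high. Across the whole chow table edgeR called 20 of 88203 intervals (0.0227%) at an adjusted p under 0.05, and 4 of these were chow-only (0.0398% of the set), all lower in knockout livers. The table held 19 lower calls (0.0215%) and 1 higher call (0.00113%). The fit with the column number as a block called 42 chow-only intervals, all lower, of 126 in the table (0.143%; 0.134% lower and 0.00907% higher). DESeq2 called 214 lower and 5 higher, where the table had 544 calls (0.617%; 0.545% lower and 0.0714% higher). With limma-voom, run with quality weights that give deviating libraries less weight, 200 were lower and 16 higher, of 677 in the table (0.768%; 0.631% lower and 0.136% higher). DESeq2 and limma-voom shared 159 of their chow-only calls. Each of these fits included the 4 edgeR calls.

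The number of calls rested on single libraries. Without floxed 2, edgeR called 245 chow-only intervals (244 lower and 1 higher, of 604 in the table, 0.685%, with 0.667% lower and 0.0181% higher), and without both libraries numbered 2 it called 151 (148 lower and 3 higher, of 333, 0.378%, with 0.364% lower and 0.0136% higher). Without floxed 1, floxed 3 or knockout 1 it called 0, and without knockout 2 it called 1. At an unadjusted p under 0.05, those 3 fits with no calls still had 640, 875 and 613 chow-only intervals lower (6.36%, 8.7% and 6.1%, against 2.26%, 3.54% and 2.29% of overlapping ones). They had 288, 312 and 202 higher (2.86%, 3.1% and 2.01%, against 2.15%, 5.21% and 1.44%), so that without floxed 3 the higher share was below that of the overlapping set. With every library, 826 chow-only intervals (8.21%) were lower and 321 (3.19%) higher at that level, against 3.77% and 3% of the table. In the overlapping set the shares were 3.19% and 2.98%. Interval names record the genotype whose peak call supplied them, and 823 of the 826 lower intervals were named for floxed and 316 of the 321 higher ones for knockout calls. Among intervals named for floxed calls, 14.9% of chow-only and 6.38% of overlapping ones were lower; among those named for knockout calls, 6.96% and 5.82% were higher.

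Chow-only intervals spread more widely around no change than overlapping ones. Their median log2 fold change was −0.06 (quartiles −0.30 and 0.16, SD 0.454), against 0.00 (SD 0.27). At like level this difference in medians was not present outside the strongest bin. In the 4 bins of level, from weakest to strongest, chow-only medians were −0.11, 0.03, 0.04 and −0.02, against −0.13, −0.05, 0.02 and 0.08. Only in the strongest bin was the chow-only median the lower. Values below −1 numbered 342 (3.4%; 340 named for floxed calls) in the chow-only and 408 (0.522%) in the overlapping set, and values above 1 numbered 29 (0.288%) and 53 (0.0678%). The lower tail was not confined to weak intervals: in the strongest bin, 25 of 123 chow-only intervals (20.3%) were lower at an unadjusted p under 0.05, against 2.64% of overlapping ones. The 5516 named for floxed calls had a median of −0.26 and the 4539 named for knockout calls 0.16, and since these names come from the libraries compared, the split is a description. On chromosome 19 the median was −0.34 in chow-only and −0.16 in overlapping intervals, and on chromosome X 0.07 and 0.12.

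The share of all interval reads that fell in chow-only intervals was 5.36%, 5.59% and 5.03% in floxed and 4.81%, 5.28% and 4.78% in knockout livers. Knockout 2 exceeded floxed 3, so the groups overlapped, and in each group the shallow library numbered 2 was highest. Within column numbers the knockout liver was below the floxed liver in all 3 pairs (differences of −0.55, −0.31 and −0.25 percentage points). The means were 5.32% ± 0.285 and 4.96% ± 0.282 (SD, n = 3), a difference of −0.367 percentage points with p = 0.2 in a 2-sided exact permutation test. The smallest p that 3 against 3 allows is 0.1. Exact sign flips within the 3 pairs gave a 2-sided p of 0.25, the smallest they can give. What the livers of a column number share is not stated in the labels.

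The 4 called intervals belong to a cytokine receptor, a growth-factor-induced gene, a lipid carrier and a complement protein. All 4 were named for floxed calls, so they may have entered the table through the genotype in which they are high. The Lifr interval (chr15:7142672-7143172, gene body, 461 bp from a high-fat interval) read 16.8, 9.73 and 18.5 CPM in floxed and 3.05, 3.51 and 3.36 CPM in the knockouts. The groups were far apart, with floxed 2 the lowest floxed liver, and the log2 fold change was −2.19 ± 0.24 (SE; edgeR adjusted p = 0.0261). The second Phlda1 interval (chr10:111508649-111509149, gene end, gap 244 bp) read 29.3, 20.5 and 34.2 CPM against 7.92, 5.39 and 8.87 CPM. It fell by 1.91 on the log2 scale (SE 0.23, edgeR adjusted p = 0.0383), and again no knockout liver reached a floxed one.

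Fabp5, a fatty acid binding protein, had an interval (chr3:10014333-10014833, gene body, gap 829 bp) at 7.67, 9.05 and 11.7 CPM in floxed and 1.30, 2.57 and 1.09 CPM in the knockouts. It fell by 2.59 (SE 0.32, edgeR adjusted p = 0.041), and its neighbour (chr3:10013794-10014294) went from 12.0 ± 2.54 to 3.95 ± 1.43 CPM with an edgeR adjusted p of 0.096 (0.0459 with the block). The C3 interval (chr17:57216284-57216784, gene body, gap 98 bp), in the gene for the central complement protein, read 28.8, 18.2 and 20.6 CPM against 2.99, 3.95 and 7.01 CPM. It fell by 2.26 (SE 0.30, edgeR adjusted p = 0.048). Leaving out floxed 1, floxed 3 or knockout 1 took each of the 4 past 0.05, up to an adjusted p of 0.255 for Fabp5 without knockout 1.

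**Figure D2:**
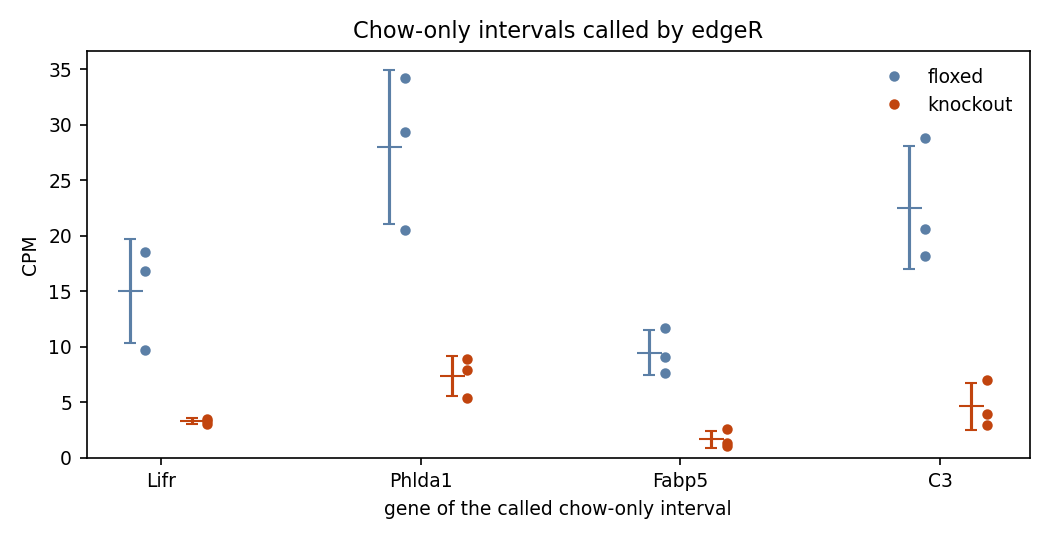
CPM of the 4 chow-only intervals called by edgeR, 1 point per liver, with the mean (dash) and SD (bar) of 3 livers per genotype. Every knockout point lies below every floxed point of its interval.

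Lifr was also the gene with the most chow-only intervals, 37 of its 59. Summed over these, the signal was 349, 153 and 367 CPM in floxed and 81.1, 98.3 and 107 CPM in the knockouts. All floxed livers were above all knockout livers, with floxed 2 nearest to them. Of the 37, 36 were lower at an unadjusted p under 0.05, and the median log2 fold change was −1.70, against −0.58 for its 22 overlapping intervals. The interval with the promoter printed above read 17.2, 10.1 and 20.9 CPM against 7.82, 6.90 and 6.13 CPM (log2 fold change −1.22 ± 0.24 SE, edgeR adjusted p = 0.197). DESeq2 called 31 of the 37. For this gene and the next ones, the background is all chow-only intervals and the whole table. Lower at an unadjusted p under 0.05 were 8.21% and 3.77%. DESeq2 called 2.18% and 0.617%, and edgeR with the block 0.418% and 0.143%. The intervals of a gene are neighbours, so their counts are not independent.

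Egfr, the epidermal growth factor receptor, had 33 chow-only intervals of 145. They summed to 284, 150 and 182 CPM in floxed and 51.3, 88.3 and 123 CPM in the knockouts. The groups did not overlap, and 21 of the 33 were lower at an unadjusted p under 0.05, against 3.77% of the table. The median log2 fold changes were −1.26 for chow-only and −1.25 for overlapping intervals. The smallest edgeR adjusted p there was 0.0872, and the fit with the block called 1 of the 33. All 33 were named for floxed calls, as were 36 of the 37 at Lifr.

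Of the hepatocyte transcription factors, Onecut1 (HNF6) had 31 chow-only intervals of 52 and Foxa2, a pioneer factor that opens liver enhancers, 28 of 55. Onecut1 summed to 325, 101 and 370 CPM in floxed and 33.8, 53.1 and 97.9 CPM in the knockouts. Floxed 2 was close to knockout 3, although no values crossed. All 31 intervals were lower at an unadjusted p under 0.05, against 3.77% of the table (median log2 fold change −2.07, smallest edgeR adjusted p 0.125). All 31 were named for floxed calls, and the fit with the block called 8. The 21 overlapping intervals of Onecut1 had a median of −0.76. Foxa2 summed to 287, 192 and 256 CPM against 125, 120 and 170 CPM, with 23 of 28 lower at that level and a median of −0.79. The strongest of these by p (chr2:148037769-148038269, intergenic, 4608 bp from the gene) fell short of the threshold, at 14.3 ± 2.15 and 6.11 ± 1.02 CPM (edgeR adjusted p = 0.0958, 0.0373 with the block). The fit with the block called 3 of the 28, and 25 of the 28 were named for floxed calls. The 27 overlapping intervals of Foxa2 had a median of −0.46.

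Metabolic genes filled the rest of that ranking. Hacl1, a peroxisomal enzyme of fatty acid alpha-oxidation, had 21 chow-only intervals of 35, which summed to 141, 75.1 and 256 CPM in floxed and 58.0, 41.1 and 33.2 CPM in the knockouts. All 21 were lower at an unadjusted p under 0.05, against 3.77% of the table, and the groups did not overlap. The median log2 fold change there was −1.85, against −1.36 for the 14 overlapping intervals of Hacl1. Aacs, which makes acetoacetyl-CoA from the ketone body acetoacetate, had 21 of 41, at 169, 294 and 54.7 CPM against 33.9, 82.0 and 105 CPM. These overlapped, and floxed 2 was the highest liver rather than the lowest. Nudt7, a peroxisomal coenzyme A hydrolase, had 20 of 31, at 151, 140 and 141 CPM against 115, 98.5 and 118 CPM, with no overlap. Coq8a, which acts in coenzyme Q synthesis, had 21 of 35 at 126 ± 41.0 and 134 ± 11.7 CPM (SD, n = 3) and no interval past an unadjusted 0.05. For chow-only and overlapping intervals the medians were −1.11 and −0.99 at Aacs, −0.45 and −0.13 at Nudt7, and 0.10 and 0.19 at Coq8a. Named for floxed calls were all 21 at Hacl1, all 21 at Aacs, 16 of 20 at Nudt7 and 10 of 21 at Coq8a.

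**Figure D3:**
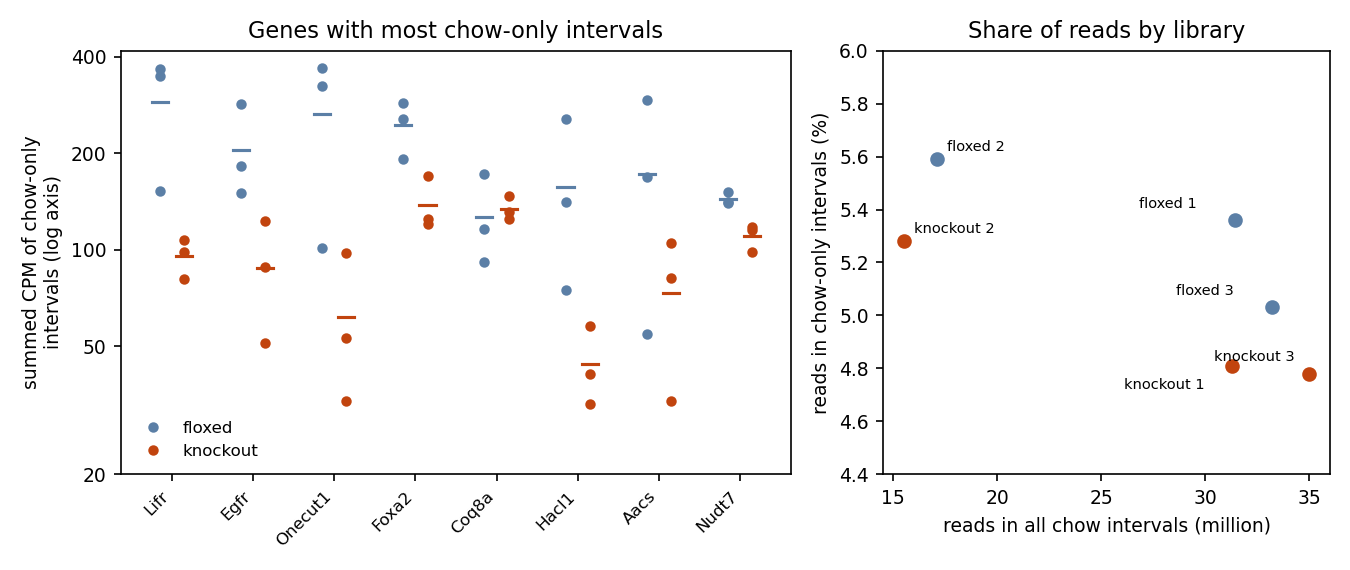
Left, summed CPM (log axis) of the chow-only intervals of the 8 genes with most of them, 1 point per liver and a dash at the mean of 3; at 6 of the 8 genes all floxed livers lie above all knockout livers. Right, percent of reads in chow-only intervals against reads in all chow intervals (M); the axis starts at 4.4%.

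Fold changes differed with the length of a run. Chow-only intervals standing alone were lower at an unadjusted p under 0.05 in 5.74% of cases and higher in 3.12%, and those in pairs in 6.69% and 3.58%. The 1203 intervals in runs of 3 or more were lower in 24.8% and higher in 2.91%, and the 341 in runs of 5 or more in 42.8% and 3.52%. Median log2 fold changes were −0.04, −0.08, −0.21 and −0.57. Intervals named for floxed calls made up 52.7% of single intervals and 66.8% of those in runs of 3 or more, and the lower ones were nearly all of that kind. Within the floxed-named intervals, 10.8% of single ones, 12.2% of those in pairs and 37.1% of those in runs of 3 or more were lower at that level. Intervals of a run are neighbours in 1 stretch of chromatin, so their counts are not independent. Of the 342 chow-only intervals below −1, 205 were in runs of 3 or more, and Lifr (36), Onecut1 (30), Egfr (20), Hacl1 (20), Aacs (19) and Cyp2c69 (19) held the most.

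**Figure D4:**
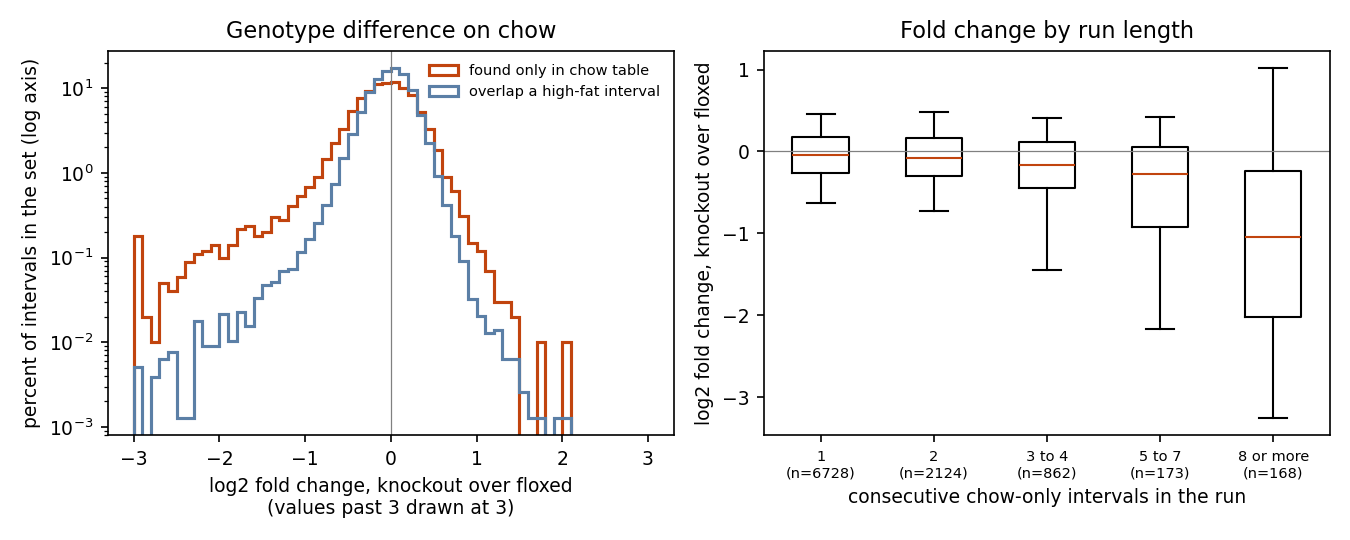
Left, log2 fold change of knockout over floxed for chow-only and overlapping intervals, as percent of each set (log axis). Right, log2 fold change of chow-only intervals by the number of consecutive chow-only intervals in their run (box, quartiles; line, median; whiskers, 5th and 95th percentiles); medians go from −0.04 for single intervals to −1.05 for runs of 8 or more.

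Among the 15 runs of 8 or more, summed signal was lower in every knockout than in every floxed liver at 8 and higher at 0. These 8 runs held 108 intervals, 106 of them named for floxed calls. They may have entered the table through the genotype in which they are high, so their direction is a description. Of all chow intervals 6.04% were separated lower and 5.63% higher, but those are single intervals, not sums over a run. The longest run held 21 intervals at Onecut1 (chr9:74871804-74889150) and summed to 209, 72.2 and 260 CPM in floxed and 24.4, 39.5 and 67.8 CPM in the knockouts. The next, 20 intervals across Cyp2c40 and Cyp2c69 (chr19:39820915-39912580), cytochrome P450 genes of a cluster of near-identical copies, summed to 160, 51.6 and 305 CPM against 23.7, 23.1 and 23.5 CPM. Floxed livers differed among themselves far more than knockout livers did, and the median log2 fold change was −3.22 with a smallest edgeR adjusted p of 0.0731. Reads in such a cluster may be placed on the wrong copy, so these values are uncertain.

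A run of 9 intervals at Ces3b, a liver carboxylesterase with close paralogues, summed to 127, 49.0 and 282 CPM in floxed and 25.4, 20.8 and 28.0 CPM in the knockouts. Its groups did not overlap, and the order of the floxed livers was that seen at Cyp2c69, with floxed 2 lowest and floxed 3 highest. At 1 of its intervals (chr8:105090289-105090789) the levels were 27.4, 10.5 and 54.9 CPM against 3.21, 3.70 and 2.80 CPM (log2 fold change −3.28, edgeR adjusted p = 0.0752). The run of 19 at Lifr and its neighbour Egflam (chr15:7170420-7202646) summed to 126 ± 57.1 and 45.6 ± 13.8 CPM, and the run of 12 at Hacl1 to 87.7 ± 53.9 and 22.7 ± 6.67 CPM (SD, n = 3).

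Smaller separations were measured at other runs. At Nudt7, 8 intervals summed to 62.5 ± 1.87 and 44.0 ± 2.50 CPM. At Hsd17b2, a steroid dehydrogenase, 9 summed to 73.4 ± 3.47 and 56.7 ± 8.98 CPM. At Klrg1, an inhibitory receptor of NK and T cells, 10 summed to 77.9 ± 8.89 and 58.7 ± 5.03 CPM (SD, n = 3), and 1 of these was lower at an unadjusted p under 0.05. At Mlycd, which breaks down malonyl-CoA, 8 went from 69.8 ± 29.7 to 40.0 ± 7.06 CPM with overlap.

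**Figure D5:**
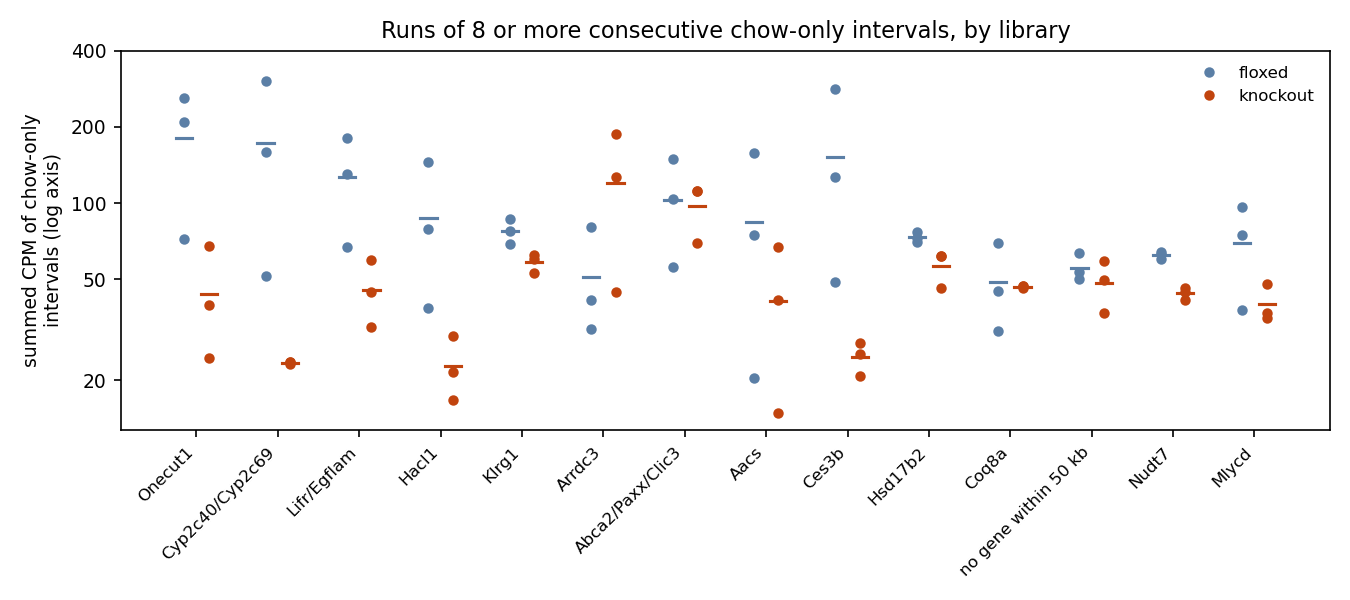
Summed CPM (log axis) of runs of 8 or more consecutive chow-only intervals (all but 1 of the 15), 1 point per liver and a dash at the mean of 3 livers per genotype. At 8 runs every knockout point is below every floxed point, and at 0 runs above.

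The higher side was led by Arrdc3, an arrestin-like adaptor. Its run of 9 intervals summed to 80.4, 41.3 and 31.8 CPM in floxed and 127, 44.7 and 188 CPM in the knockouts. Knockout 2 fell among the floxed livers, so the groups overlapped. Of the 9 intervals, 8 were higher at an unadjusted p under 0.05, against 3% of the table (median log2 fold change 1.29). All 9 were named for knockout calls, so they may have entered the table through the genotype in which they are high. Their direction is a description. Of the 29 chow-only intervals above 1, Arrdc3 held 10 and Mup3, a major urinary protein gene with many close copies, 4. All 29 were named for knockout calls. Intervals at Mup3 (log2 fold change 1.27), Gsta3 and Gstm6 (glutathione transferases with close paralogues; 0.62 and 0.63), Med30, a Mediator subunit (0.50), and Car3, a carbonic anhydrase (0.81), had, with Arrdc3, the smallest p among higher intervals at or above the table's median level, taken 1 per gene, and edgeR called 0 of them. DESeq2 called the Mup3 interval (adjusted p = 0.0282) and limma-voom the Gsta3 interval (adjusted p = 0.0448). The Arrdc3 interval of that group, outside the run, passed only in edgeR without both libraries numbered 2 (adjusted p = 0.0221). With all libraries its adjusted p was 0.326 in edgeR and in DESeq2, 0.0833 in limma-voom and 0.089 in edgeR with the block. Without knockout 3 the edgeR value was 0.901.

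Runs of 8 or more at Aacs, at Coq8a, across Abca2, Paxx and Clic3, and at a site on chromosome 5 with no gene within 50000 bp also overlapped between genotypes.

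Gene lists for liver pathways were compared by counts, without a test of the lists. Their background is that 11.4% of all chow intervals were chow-only, and that of these 8.21% were lower and 3.19% higher at an unadjusted p under 0.05 and 2.18% were called by DESeq2. The hepatocyte transcription factors had 93 chow-only intervals of 625 (14.9%), of which edgeR called 0, and 60 were lower and 0 higher at an unadjusted p under 0.05. Onecut1 supplied 31 of these and Foxa2 23. DESeq2 called 25 of the 93, all lower, and edgeR with the block 11. The list's median log2 fold change was −0.76, against −0.11 for the overlapping intervals of the list and −0.06 over all chow-only intervals. Other members were small in number: Rxra, the partner of many nuclear receptors, had 5 chow-only intervals (49.2 ± 5.34 and 36.6 ± 0.996 CPM summed), and Nr5a2, a regulator of bile acid genes, 5 (20.7 ± 1.20 and 22.3 ± 3.42 CPM).

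Inflammation and acute-phase genes had 25 chow-only intervals of 300 (8.33%), of which 1 (C3) was called, and 15 were lower and 1 higher at an unadjusted p under 0.05. DESeq2 called 8, all lower, and edgeR with the block 2. Among the overlapping intervals of this list edgeR called 13. The list's median log2 fold change was −0.62 in chow-only and −0.15 in overlapping intervals. The 3 fibrinogen genes held 5 chow-only intervals each. Fgb summed to 144, 128 and 181 CPM in floxed and 84.6, 91.6 and 76.5 CPM in the knockouts, Fga to 84.9 ± 23.2 and 50.3 ± 4.06 CPM, and Fgg to 105 ± 45.1 and 57.4 ± 5.76 CPM (SD, n = 3). At Fga and Fgb, and at Fgg, all floxed livers were above all knockout livers. All 5 chow-only intervals of each gene were named for floxed calls. The overlapping intervals were low as well, with medians of −0.704, −0.672 and −0.553 at Fga, Fgb and Fgg, against −0.867, −0.786 and −0.925 in chow-only ones. The strongest Fgb interval, at 40.0 ± 9.76 and 19.1 ± 0.809 CPM, fell short of the threshold (log2 fold change −1.07, edgeR adjusted p = 0.096).

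Bile acid genes had 34 chow-only intervals of 252 (13.5%; 0 called, 10 lower and 0 higher at an unadjusted p under 0.05; 2 called by DESeq2). Cyp7a1, which catalyses the rate-limiting step from cholesterol to bile acids, summed over 8 of its 21 intervals to 68.6, 75.1 and 65.7 CPM in floxed and 46.3, 36.8 and 56.1 CPM in the knockouts. Abcb11, the bile salt export pump, had 7 chow-only intervals of 10, at 45.8 ± 6.25 and 28.7 ± 5.44 CPM. Neither gene's groups overlapped, and the smallest edgeR adjusted p was 0.218 at Cyp7a1 and 0.281 at Abcb11. Named for floxed calls were 6 of the 8 at Cyp7a1 and all 7 at Abcb11. Of all chow intervals 6.04% were separated lower, but those are single intervals, not sums over a gene.

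At some lipid synthesis genes the floxed livers differed widely from one another. The fatty acid and triglyceride list had 62 chow-only intervals of 431 (14.4%; 0 called, 5 lower and 0 higher at an unadjusted p under 0.05), and the cholesterol list 41 of 223 (18.4%; 0 called, 7 lower and 1 higher). DESeq2 called 1 and 0 of these, and edgeR with the block 0 and 1. Fasn, fatty acid synthase, summed over 9 intervals to 67.3, 378 and 23.7 CPM in floxed and 67.5, 163 and 111 CPM in the knockouts. Scd1, the stearoyl-CoA desaturase, summed over 8 to 29.1, 244 and 34.0 CPM against 29.9, 73.9 and 61.6 CPM. Floxed 2 stood far above every other liver at both, and the genotypes overlapped. Elovl6, a fatty acid elongase, had 14 chow-only intervals (81.1 ± 37.2 and 70.5 ± 3.90 CPM). Elovl5, another elongase, differed little among floxed livers: its 5 summed to 31.2, 31.7 and 28.9 CPM against 18.5, 26.2 and 18.2 CPM, with no overlap between genotypes and 1 of 5 lower at an unadjusted p under 0.05. All 5 at Elovl5 were named for floxed calls. Sc5d, of the last steps of cholesterol synthesis, had 11 (79.1 ± 32.0 and 71.7 ± 13.2 CPM).

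Sex-biased liver genes are the targets of growth hormone patterns that differ between male and female mice. The male-biased list had 47 chow-only intervals of 179 (26.3%), of which 0 were called, 22 lower and 5 higher at an unadjusted p under 0.05, and DESeq2 called 7 (5 of them lower). Nudt7 held 20 of these, Serpina1e, a protease inhibitor gene with close copies, 8 (67.0, 27.5 and 75.2 CPM against 14.1, 25.2 and 21.5 CPM), and Mup3 5 (39.7, 23.3 and 17.3 CPM against 80.4, 38.1 and 56.2 CPM). Serpina1e was lower in every knockout liver, while Mup3 overlapped between the genotypes. Named for floxed calls were all 8 at Serpina1e and 0 of the 5 at Mup3. The female-biased list had 30 of 265 (11.3%; 0 called, 7 lower, 0 higher; DESeq2 called 3 of the 29 at genes listed by their current symbol).

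NRF2 targets had 13 of 147 (8.84%), with 0 called and 4 higher at an unadjusted p under 0.05. Gclc, a subunit of the enzyme that starts glutathione synthesis, summed over 6 to 28.8, 22.8 and 22.6 CPM in floxed and 33.8, 32.4 and 50.2 CPM in the knockouts, with no overlap. Of these 6, 1 was named for a floxed call and the others for knockout calls. Targets of the xenobiotic receptors CAR and PXR had 24 of 287 (8.36%), with 0 called and 0 past an unadjusted 0.05, and a median log2 fold change of 0.24. Fatty acid oxidation genes had 12 of 255 (4.71%), gluconeogenesis and fasting genes 15 of 330 (4.55%), lipid droplet genes 11 of 219 (5.02%) and AP-1 genes 4 of 136 (2.94%). Clock genes had 27 of 255 (10.6%), p53 and cell cycle genes 11 of 114 (9.65%), and fetal liver genes 11 of 55. In each of these last 7 lists edgeR called 0, and at most 2 were lower and 1 higher at an unadjusted p under 0.05. DESeq2 called 1 clock interval and 0 in the other lists of this paragraph.

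Markers of cell types were counted in the same way. Hepatocyte markers had 32 chow-only intervals of 410 (7.8%), sinusoidal endothelial markers 13 of 93 (14.0%), stellate and matrix markers 8 of 29 (27.6%), markers of T, B and NK cells 10 of 38 (26.3%) and neuronal markers 5 of 35 (14.3%). Kupffer, neutrophil and acinar markers had 1 each, muscle 2, adipocyte 3, cholangiocyte 4 and erythroid 0 of 8. edgeR called 0 and DESeq2 3, all 3 at hepatocyte markers, and the counts lower at an unadjusted p under 0.05 were 5 at hepatocyte, 3 at endothelial and 1 each at stellate and at T, B and NK markers. Over all chow intervals, endothelial markers summed to 767 to 811 CPM in floxed and 661 to 778 CPM in knockout livers, all 15 with an interval. Markers of T, B and NK cells summed to 421 to 440 CPM and 403 to 415 CPM, with 6 of 17 lacking an interval. Their part in the differences at Klrg1 and elsewhere was not tested.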

How the data were processed

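Nuclei from 50 mg of frozen liver were used for ATAC-seq, with 1 library per female mouse as the titles number them. The authors deposited whole-number read counts per interval and library, 1 table per diet, and a score per interval whose meaning is not stated in the file. Builds and tools are from the submitters' processing notes: mm10, MACS2 2.2.7.1, HOMER 4.11, Bowtie2 2.4.2, bedtools, ChIPseeker, DESeq2 and Trim Galore 0.6.7. Treatment of duplicate and multiply mapped reads and any shift for the transposase are not stated in the labels or headers used here. Positions alone were taken from the high-fat table.

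All 88203 chow intervals were fitted in edgeR 4.0.16 (R 4.3.3): TMM scaling, filterByExpr (which removed none), a quasi-likelihood test of genotype and Benjamini-Hochberg adjustment at 0.05. DESeq2 1.42.0 and limma-voom 3.58.1 with quality weights per library were alternatives, and the script was tested on simulated data. CPM are TMM-scaled, and errors are SD unless named SE. Non-overlap means that every liver of one genotype was below every liver of the other. Intervals were assigned to the nearest of 21627 RefSeq protein-coding genes (GRCm38.p6) within 50000 bp. Promoter sequences and microRNAs come from RefSeq (GRCm38.p6), and promoters on chromosome 18 were not used here.

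Chow columns name genotype and number but match no single label, so libraries are numbered by column. Deviations of same-numbered floxed and knockout libraries from their group means correlated at 0.184, 0.533 and 0.189 (numbers 1, 2 and 3). The numbers were treated as pairs in the block fit and the sign flips. Only number 2 stood out: knockout 1 correlated better with floxed 3 (0.278), and knockout 3 correlated with floxed 1 at 0.184. Deviations cancel within a group, so the shallow libraries numbered 2 can by themselves raise the values among numbers 1 and 3. These correlations therefore cannot decide whether numbers 1 and 3 pair livers, and no label says what a number shares. P-values set the difference between genotypes against the spread between these livers.

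Named were called intervals, the 6 smallest p in each direction at or above the median level, the 10 highest, the 8 genes with most chow-only intervals, intervals at the threshold, and list examples. Runs of 8 or more and microRNAs were added after their values were seen. Members and lists were chosen with earlier results of these data known. Some items, 1 long run among them, are not reported here.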

Additional observations from a re-analysis of the deposited data

How the results depend on the processing

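The count of chow-only intervals called (4 with edgeR) was 219 with DESeq2, 216 with limma-voom, 42 with the replicate block and 151 without both libraries numbered 2, and ranged from 0 to 245 when 1 library was left out. It was 1 among intervals more than 500 bp from any high-fat interval and 0 among those more than 5000 bp away, sets of 7191 and 4107 intervals. At the greater distance 296 (7.21%) were lower and 99 (2.41%) higher at an unadjusted p under 0.05, against 3.77% and 3% of the table, and DESeq2 called 59 (1.44%, against 0.617%). DESeq2 size factors in edgeR, no filter and a filter of at least 50 counts in at least 3 libraries each left it at 4, and counting intervals with under 50% of their bases shared gave 6. The median log2 fold change over chow-only intervals of all levels stayed below 0, from −0.133 to −0.00391. The difference in the share of reads stayed negative, from −0.53 to −0.172 percentage points. Its test within column numbers was added after seeing the data. The log2 fold change of the Birc6 interval, 0.01 with all libraries, ranged from −0.07 to 0.11 with 1 library left out and was below 0 without floxed 1, floxed 2 or knockout 3. With genes taken within 10000 bp, 74.5% of chow-only and 81.7% of overlapping intervals had one. The cause of these changes was not tested. The median chow-only interval held 124 reads per library, and the smallest difference detectable at that depth was not measured.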

Other observations

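Floxed 2 took opposite places at different chow-only gene groups, a pattern noticed after the values were seen and given as counts. Among all 5245 genes with a chow-only interval, floxed 2 had the highest summed signal of the 3 floxed livers at 52.8% and the lowest at 27.5%. At the fatty acid and triglyceride synthesis genes it was highest at 13 of 15, and their chow-only intervals summed to 373, 1020 and 241 CPM in floxed and 310, 482 and 488 CPM in knockout livers. At the hepatocyte transcription factor genes it was lowest at 11 of 15, with sums of 858, 495 and 845 CPM against 377, 356 and 475 CPM. At the fatty acid oxidation genes it was lowest at 6 of 8, with sums of 84.5, 69.6 and 79.6 CPM against 88.9, 69.1 and 87.3 CPM. Floxed 2 is also a shallow library, and the part of depth in this was not tested.

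The 219 chow-only intervals called by DESeq2 (2.18%, against 0.617% of the table) lay at 68 genes, with 138 of them in runs of 3 or more. Lifr held 31, Hacl1 17, Onecut1 15, Cyp2c69 13, and Egfr and Foxa2 10 each. Igf1, the growth-hormone-induced insulin-like growth factor, held 4.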
